A study of Rattus norvegicus with 14 samples.

Results

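Sarcomatoid mesothelioma is the spindle-cell form of malignant mesothelioma, the cancer of the cell layer that lines the body cavities. The samples described here were the 5 rat peritoneal tumors whose tissue label names the sarcomatoid type, set against 3 sham-treated peritoneal tissues. They were taken by tissue label alone and make up 8 of the 14 arrays of the series. The remaining arrays held 3 biphasic and 3 epithelioid tumors, which are used below only to show where the sarcomatoid tumors stood apart from other tumors. All animals were male Wistar rats, whose age is not given in the sources used here. Each tumor had followed a single injection of fibers into the peritoneal cavity, suspended in artificial lung medium. The fibers were multi-walled carbon nanotubes (MWCNT) of 3 makes coded B, C and D, or amosite, an amphibole asbestos. The sarcomatoid tumors came from MWCNT B (1 tumor), MWCNT C (2 tumors, called here the first and the second), MWCNT D (1 tumor) and amosite (1 tumor). The biphasic tumors came from MWCNT C, MWCNT D and amosite, and the epithelioid tumors from MWCNT B, MWCNT D and amosite, 1 tumor each. The control rats are sham-treated in the sample labels and untreated in the study's methods. The 3 control tissues were separate samples of the peritoneum, and each sample was measured on 1 array. With 1 or 2 sarcomatoid tumors for a fiber, fibers within the sarcomatoid type were not compared.

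Mesothelial cells form a single flat layer over the peritoneum and carry both epithelial proteins (simple keratins, mesothelin, the transcription factor Wt1) and the mesenchymal filament protein vimentin. In epithelioid mesothelioma the tumor cells keep an epithelial shape and their junctions, in sarcomatoid mesothelioma they are elongated and resemble fibroblasts, and biphasic tumors hold both patterns. The change of shape is related to epithelial to mesenchymal transition, in which cells give up cadherin junctions and keratins, build actin stress fibers and integrin contacts, and secrete and cut matrix. Sarcomatoid tumors are known for poor outcome in patients.

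Values are given as log2 signal, which is log2 of the deposited PLIER intensity plus 1. A log2 fold change is the mean log2 signal of the sarcomatoid tumors minus that of the group they are set against, so that a positive value means higher in the sarcomatoid tumors. It stands with its standard error from limma and with a p-value adjusted by the Benjamini-Hochberg method over all 31042 probe sets. A probe set was called when the adjusted p was below 0.05 and the fold change above 2. The deposited table holds no detection calls, and log2 signals of 5 or less made up 18.1% to 19.0% of the probe sets of the sarcomatoid arrays and 21.8% to 24.4% of those of the controls. Where a group averaged below 5, the size of a fold change is not firm, and the log2 fold change at a floor, with signals below 5 raised to 5, is given beside it or in its place.

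The sarcomatoid tumor of MWCNT D stood apart from the other 4. Over all probe sets it correlated with them at 0.852 to 0.864, while the other 4 reached 0.956 among each other and the controls reached 0.969 to 0.975. Of 15 genes of pancreatic acinar cells, the mean log2 signal was 13.83 there, while the others lay between 5.42 and 5.88, and the list held 4.15% of its total signal. The chymotrypsinogen gene Ctrb1 was at 18.89 and the elastase gene Cela2a at 16.15. Genes of lymphocytes were also high there, with a list mean of 10.24 for T and NK cells, where the remaining 4 had 6.03 to 7.19. For B and plasma cells it was 11.88, against 6.63 to 7.30. Ccl19 and Glycam1, a chemokine and a mucin of lymph node vessels, reached 17.47 and 15.74. In contrast, its list means were the lowest of the 5 tumors for mesothelial cells (6.78), mitosis (7.56) and plasminogen activation (7.61). Tissue of other kinds in this sample was not measured separately, and counts of lists below are therefore given with and without this tumor. An epithelioid tumor also held pancreatic enzyme genes, at up to 5.4% of the signal.

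The control tissue was rich in skeletal muscle. A list of 38 skeletal muscle genes held 8.1% to 8.7% of the signal of each control array, against 0.031% to 0.071% in the sarcomatoid tumors. Genes of mesothelial cells, the lining that gives the tissue its name, were dim in the controls, with Wt1 at 3.62, 3.26 and 5.54 and Msln at 4.82, 3.50 and 6.64. Adipocyte genes were present, Adipoq at 9.89, 11.07 and 11.14. In bulk tissue, fewer cells of a type and less RNA per cell cannot be told apart. Control probe sets for the ends of transcripts also differed between the groups for beta-actin and hexokinase, in opposite directions, and not for GAPDH. The log2 signal of the 3' minus the 5' beta-actin probe sets was 0.30 to 0.48 in sarcomatoid tumors and -1.24 to -0.65 in controls. That of hexokinase was 0.81 to 1.24 in tumors and 1.70 to 3.91 in controls. For GAPDH it was -0.03 to 0.18 in sarcomatoid tumors and 0.10 to 0.16 in controls. The part of these differences in the results was not tested.

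Sarcomatoid tumors differed widely from control peritoneum. Of 31042 probe sets, 7248 were called higher (23.3%) and 3377 lower (10.9%). By gene, with the brightest probe set standing for each of 14217 genes, 3778 were higher (26.6%) and 1572 lower (11.1%). Without the MWCNT D tumor, 7474 probe sets were higher and 3548 lower. The excess of rises depended on the scale. Array medians were 128.8 to 135.2 in the sarcomatoid tumors and 96.9 to 104.3 in the controls, and the median log2 fold change over all probe sets was 0.31. When each array was centred on its median, 4836 probe sets were higher and 5235 lower, and after quantile normalization 5159 and 4620. Over all genes the median was 0.39, and it stands below as the level against which lists of genes are read. Where a list is given with counts in a single direction, limma called none of its genes in the other.

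Among called genes whose groups did not overlap and whose brighter group averaged at least 8, the 12 largest rises at the floor held genes of mesothelium, macrophages, matrix and cell division. The largest was Gpr15lg, which encodes a ligand of the receptor Gpr15. It was at 12.91 in the MWCNT B tumor, 12.82 and 13.53 in the MWCNT C tumors, 7.09 in the MWCNT D tumor and 13.21 in the amosite tumor, against 4.36, 4.16 and 3.28 in controls (log2 fold change at the floor 6.91, adjusted p = 0.018). All tumors were above all controls, and the MWCNT D tumor was the lowest. Ezrin (Ezr), which ties the plasma membrane to cortical actin, was the most even of the large rises. Its log2 signal was 12.42, 11.93, 11.75, 12.22 and 11.80 in the tumors of MWCNT B, MWCNT C (first and second), MWCNT D and amosite, against 5.05, 6.16 and 6.85 in controls (log2 fold change 6.0 ± 0.34 SE, adjusted p = 4.7e-08). Osteopontin (Spp1), a secreted phosphoprotein that binds integrins and is used as a serum marker of mesothelioma in patients, stood at 13.35, 13.52, 12.77, 8.07 and 11.80 in the tumors in the same order, against 0.03, 6.55 and 6.33 in controls. The groups did not overlap, although the lowest tumor and the highest control were near each other (log2 fold change at the floor 5.94, adjusted p = 0.0021). Also among the 12 were syndecan 1 (Sdc1, log2 fold change 5.66), the adhesion molecule Vcam1 (5.57), the macrophage glycoprotein Gpnmb (5.34), the B cell chemokine Cxcl13 (6.68), the proliferation antigen Mki67 (5.30), Krt8 and Wt1, together with Tmem178a (5.61) and C3h15orf48 (5.71).

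The 12 largest falls were genes that striated muscle expresses. Muscle phosphoglycerate mutase (Pgam2) led them, at 5.47, 4.97, 5.59, 4.08 and 4.62 in the 5 sarcomatoid tumors and 19.33, 19.36 and 19.28 in the 3 controls (log2 fold change -14.38 ± 0.29 SE, adjusted p = 1.3e-12, at the floor -14.11). The fast myosin heavy chain Myh4 was at 4.26 to 4.93 in tumors and 17.38 to 17.41 in controls, a difference of -12.79 (-12.39 at the floor). The other falls of this size were in Cmya5, Cacng1, Hrc, Myl2, Smpx, Actn2, Asb11, Trdn, Hjv and Jph1, most of which encode parts of the sarcomere, its anchors or the membranes that release calcium. Over the whole list of 38 skeletal muscle genes, 36 were called lower, with a median of -8.86, and 36 were lower without the MWCNT D tumor. The tropomyosin gene Tpm2 was called higher by its brightest probe set (10.65 ± 0.92 in tumors and 7.50 ± 0.35 in controls, SD, n = 5 and 3, log2 fold change 3.15 ± 0.81 SE), but its other probe set was at 6.35 to 6.80 in tumors and 16.79 to 16.86 in controls, a log2 fold change of -10.29. The direction of Tpm2 therefore depended on the probe set. Desmin (Des), a filament protein of muscle that is also found in mesothelial cells, was the remaining member. It did not pass the test, with 12.45, 12.48, 11.89, 9.42 and 12.53 in tumors against 13.57, 13.69 and 13.60 in controls (adjusted p = 0.11).

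**Figure D1:**
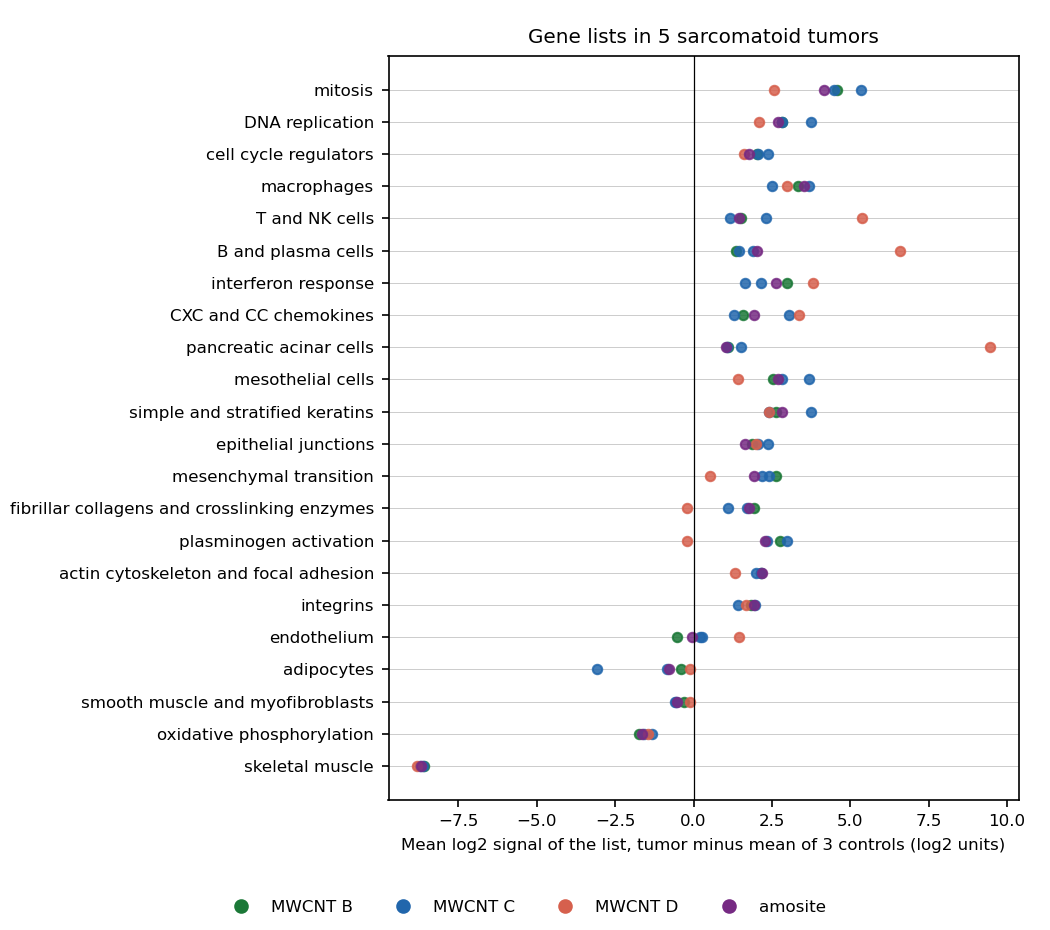
Mean log2 signal of 22 gene lists in each of the 5 sarcomatoid tumors, minus the mean of the 3 controls (x axis, log2 units, points coloured by fiber). Skeletal muscle genes lie furthest left for every tumor, and mitosis genes furthest right for the 4 tumors other than that of MWCNT D, while the MWCNT D tumor lies alone at the right for pancreatic and lymphocyte genes and left of the other tumors for mesothelial genes, with a list mean of 6.78.

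Enzymes of energy metabolism that exist in a muscle form and a widely expressed form moved apart, in the pairs below that were chosen after their values were seen. The muscle forms fell and the widely expressed forms rose. Pgam2 fell as above, and its non-muscle counterpart Pgam1 was at 13.23 ± 0.48 in sarcomatoid tumors and 10.52 ± 0.15 in controls (log2 fold change 2.71 ± 0.29 SE, adjusted p = 1.3e-05). For enolase, the muscle form Eno3 changed by -4.32 and the common form Eno1 by 2.66. For phosphofructokinase, the muscle form Pfkm changed by -4.57, against 2.69 for the liver form Pfkl and 3.08 for the platelet form Pfkp. The insulin-responsive glucose transporter Slc2a4 changed by -7.11 and the basal transporter Slc2a1 by 3.53. In cytochrome c oxidase, the heart and muscle subunits Cox8b and Cox6a2 were both near background in the 4 tumors other than that of MWCNT D. They changed by -10.99 and -7.94 at the floor (-11.57 and -9.99 without the floor), and their ubiquitous counterparts Cox8a and Cox6a1 by 1.25 and 1.79. Each of these 13 genes was called, and in each the 2 groups did not overlap. Cox8b was at 11.28 in the MWCNT D tumor and at 3.50 to 5.14 in the other 4. With arrays centred on their median, Cox8a changed by 0.87, a fold under 2. Of 33 genes on the list of glycolysis and hypoxia, 12 were higher and 9 lower (median -0.38). Without the MWCNT D tumor 12 were higher and 7 lower, with a median of 0.0, and with arrays centred 11 were higher and 12 lower, with a median of -0.76. Of 36 genes of oxidative phosphorylation, 22 were lower and 2 higher, the 2 being Cox6a1 and Cox8a (median -1.13). The counts were the same without the MWCNT D tumor, and 30 were lower and 1 higher with arrays centred. Ndufs3 of complex I was at 9.73 to 10.14 in tumors and 12.39 to 12.40 in controls. The first tumor of MWCNT C had the highest glucose transporter signal (Slc2a1 at 11.86, against 8.23 to 10.81 in the other tumors).

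**Figure D2:**
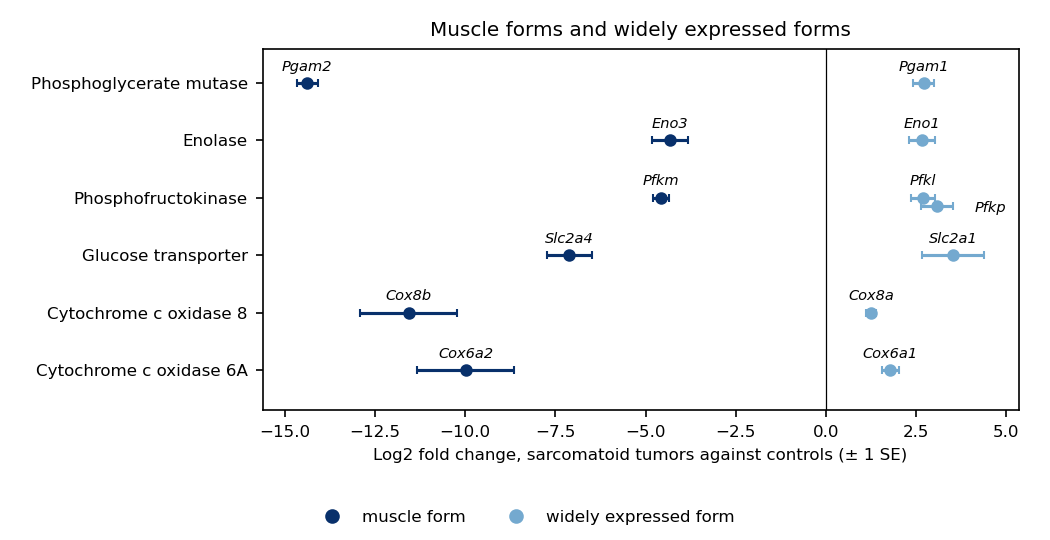
Log2 fold change of sarcomatoid tumors against controls (x axis, bars are ± 1 standard error from limma) for muscle forms (dark) and widely expressed forms (light) of 6 enzymes, carriers or subunits. Every muscle form lies left of 0, down to -14.38 for Pgam2, and every widely expressed form lies right of 0, up to 3.53 for Slc2a1.

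Genes of the mesothelial lineage were higher in sarcomatoid tumors than in the muscle-rich control tissue, and unevenly so. Of 17 measured genes on the mesothelial list, 8 were called higher (median 1.89, against 0.39 over all genes), and 10 were higher without the MWCNT D tumor. The zinc finger factor Wt1, which marks mesothelium from the embryo on, was at 11.54, 10.73, 11.59, 7.08 and 11.40 in the tumors of MWCNT B, MWCNT C (first, second), MWCNT D and amosite, against 3.62, 3.26 and 5.54 in controls. Every tumor was above every control, the MWCNT D tumor by the least (log2 fold change 6.33 ± 0.94 SE, adjusted p = 0.00015, at the floor 5.29). Mesothelin (Msln), a surface protein of mesothelial cells, was at 11.61, 11.11, 11.57, 7.92 and 11.41 in the same order, against 4.82, 3.50 and 6.64 in controls (log2 fold change 5.74 ± 0.82 SE, adjusted p = 0.00012, at the floor 5.18). The MWCNT D tumor was again the lowest for the uroplakin gene Upk1b, with 10.95, 10.93, 10.39, 6.33 and 9.41 in tumors and 3.51, 4.33 and 6.74 in controls, and there it lay within the controls. Calretinin (Calb2), a marker used in diagnosis, did not pass, at 7.31 to 7.55 in tumors and 7.27 to 7.52 in controls (adjusted p = 0.94). Neither the leucine-rich repeat gene Lrrn4 (7.73 to 10.27 in tumors, 7.54 to 7.87 in controls, adjusted p = 0.23) nor podoplanin (Pdpn, 6.48 to 11.10 in tumors, 7.84 to 8.59 in controls, adjusted p = 0.51) passed the test.

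Keratins divided into those that were bright and those near the floor. Krt8, a keratin of simple epithelia, was at 11.36, 11.53, 11.90, 7.93 and 10.76 in the 5 tumors and 3.05, 3.84 and 5.47 in controls (log2 fold change 6.58 ± 0.83 SE, adjusted p = 4.4e-05, at the floor 5.54). Its partner Krt18 was at 6.18, 11.07, 7.03, 9.66 and 6.68, against 0.03, 1.81 and 3.66 in controls, and was bright only in the first MWCNT C tumor and the MWCNT D tumor. Krt7, Krt14 and Krt19 were called higher (log2 fold change 3.03, 6.79 and 3.65, and 1.01, 2.17 and 1.31 at the floor), yet their highest tumor, the first of MWCNT C in each case, reached 8.10, 9.49 and 8.26, and at the floor Krt7 and Krt19 no longer passed (adjusted p = 0.26 and 0.22). Of 12 keratins measured, 5 were called higher (median 2.14), and the count was 5 without the MWCNT D tumor.

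Junction genes rose in part. Among called genes without overlap of the groups, the largest rises at the floor were in desmosomal genes, those of plakophilin 1, desmoglein 2 (Dsg2) and envoplakin. Of 26 measured genes, 10 were higher and 2 lower (median 1.66), and the same counts were found without the MWCNT D tumor. Plakophilin 1 (Pkp1), a desmosome plaque protein, was at 11.78, 10.94, 11.34, 5.27 and 10.70 in tumors, against 2.82, 0.08 and 0.07 in controls (log2 fold change at the floor 5.01, adjusted p = 0.012). The 4 bright tumors lay close together and the MWCNT D tumor was near background. Envoplakin (Evpl), which links desmosomes to keratin, showed a like order (10.32, 8.31, 9.92, 4.25 and 8.85 in tumors, 0.01, 1.89 and 3.74 in controls). P-cadherin (Cdh3) was at 9.16, 8.43, 8.56, 5.58 and 10.12 in tumors, against 3.54, 4.46 and 4.48 in controls (log2 fold change 4.21 ± 0.78 SE, adjusted p = 0.00075, at the floor 3.37). E-cadherin (Cdh1), the main adhesion protein of epithelia, was dim in both groups, with 4.59, 7.26, 5.02, 8.69 and 5.42 in tumors and 2.12, 3.29 and 2.83 in controls, and its rise of 3.44 did not hold at the floor (1.28, adjusted p = 0.42). Plakophilin 2 (Pkp2) and plakoglobin (Jup), desmosome proteins that heart and other muscle also use, were lower (log2 fold change -2.41 and -1.41). Jup in the MWCNT D tumor (9.36) was level with the controls (9.33 to 9.35), while the other tumors were at 7.09 to 7.90. Its call was lost when any array but that of the MWCNT D tumor was left out (adjusted p = 0.053 to 0.08).

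**Figure D3:**
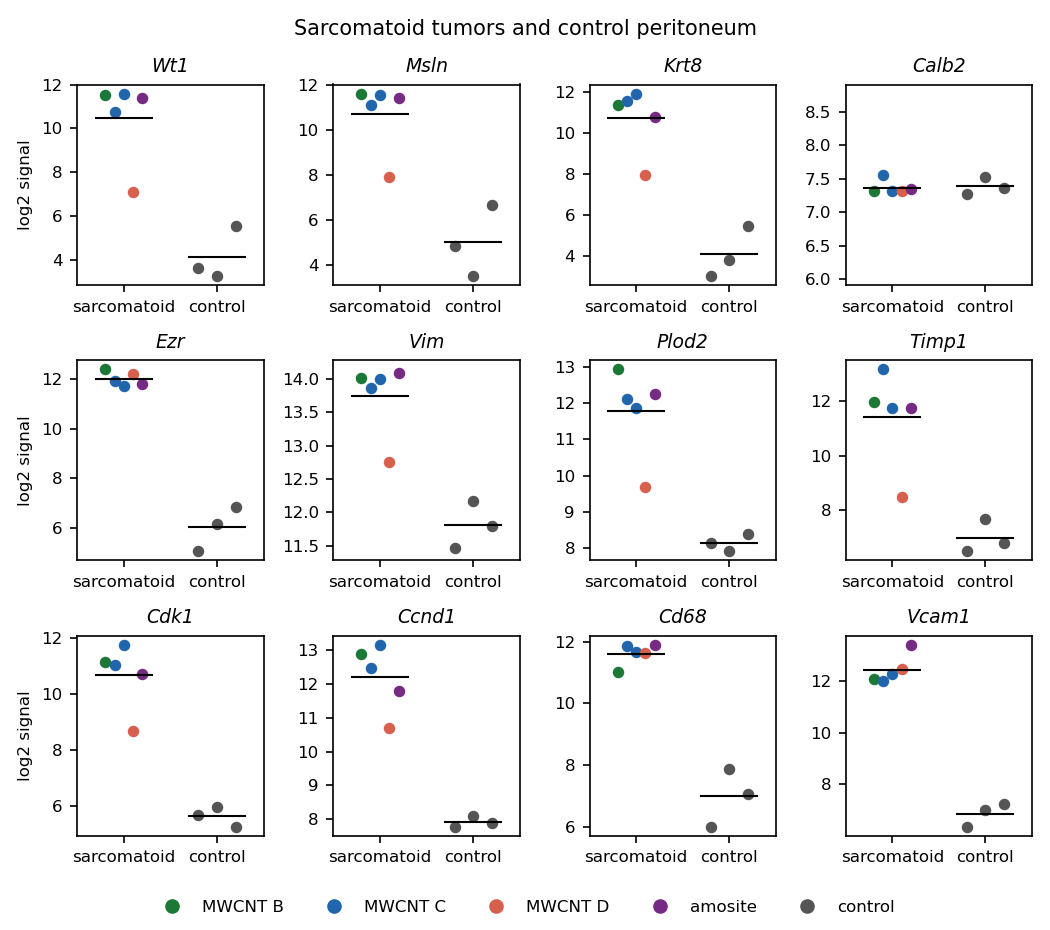
Log2 signal (y axis) of 12 genes in each of the 5 sarcomatoid tumors (left of each pair, coloured by fiber) and the 3 controls (right), with horizontal bars at group means and an axis of its own for each gene. The tumors lie above the controls for Ezr, Cdk1, Vcam1 and Cd68 without overlap, the MWCNT D tumor is the lowest tumor for Wt1 at 7.08 and for Krt8 at 7.93, and for Calb2 the groups lie within each other.

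Mesenchymal genes also rose in part. Of 22 measured genes of the transition list, 11 were called higher (median 1.39), and 16 were higher without the MWCNT D tumor. At the floor the median of this list was 1.20, against 1.10 for the keratins and 0.87 for the junction genes. Vimentin (Vim), the main filament protein of mesenchymal cells, was bright in both groups, with 12.75 in the MWCNT D tumor, 13.86 to 14.09 in the other tumors and 11.47, 12.17 and 11.80 in controls (log2 fold change 1.93 ± 0.36 SE, adjusted p = 0.00076). Cadherin 11 (Cdh11), an adhesion protein of mesenchyme, was at 11.92, 9.09, 12.35, 9.04 and 10.75, against 5.22, 6.27 and 6.86 in controls (log2 fold change 4.51 ± 0.79 SE). The hyaluronan receptor Cd44 and the motility protein S100a4 rose by 4.36 and 3.50. Among transcription factors that repress E-cadherin, Snai1 was higher (9.31 ± 1.00 in tumors, 7.21 ± 0.08 in controls, adjusted p = 0.0068) and Zeb1 did not pass (10.43 ± 0.47 in tumors, 10.38 ± 0.12 in controls, adjusted p = 0.9). Twist1, which drives mesenchymal programs in development, was at 11.23, 11.08, 11.22 and 11.22 in the tumors of MWCNT B, MWCNT C and amosite and at 5.39 in the MWCNT D tumor, against 6.87, 7.06 and 7.19 in controls. With all 5 tumors its log2 fold change was 2.99 (adjusted p = 0.044, and 0.078 with arrays centred), and without the MWCNT D tumor 4.15 (adjusted p = 6.9e-06). Leaving out any other single array ended the call of Twist1 (adjusted p = 0.086 to 0.11).

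Extracellular matrix genes did not move as 1 block. The main fibrillar collagens were bright in both groups and differed by less than the spread, with Col1a1 at 12.33 ± 1.10 in tumors and 12.52 ± 0.35 in controls (adjusted p = 0.76) and Col3a1 at 13.58 ± 0.55 and 13.38 ± 0.22 (adjusted p = 0.55). Enzymes that modify and crosslink collagen were higher. Lysyl hydroxylase 2 (Plod2) was at 12.93, 12.12, 11.87, 9.70 and 12.24 in tumors, against 8.15, 7.92 and 8.39 in controls (log2 fold change 3.62 ± 0.60 SE, adjusted p = 0.00036). Lysyl oxidase (Lox) and its relative Loxl3, which oxidize lysines for crosslinks, changed by 3.06 and 3.35, and the prolyl hydroxylase subunit P4ha3 by 5.09 (4.40 at the floor). Lox in the MWCNT D tumor (8.54) lay within the controls (8.07 to 9.28), and the other tumors were at 12.26 to 12.80, and its call was lost without the first control (adjusted p = 0.054). Of 26 measured genes for collagens and their enzymes, 12 were higher (median 1.12), with 14 higher without the MWCNT D tumor. Of 28 matrix glycoproteins and proteoglycans, 8 were higher, a share near the 26.6% over all genes, and 1 lower (median 0.90). Without that tumor 13 were higher and 1 lower. Biglycan (Bgn, log2 fold change 2.45) and the TGF-beta induced protein Tgfbi (2.13) were among those higher, and fibronectin (Fn1) passed only without the MWCNT D tumor (1.54, adjusted p = 0.052, and 1.97, adjusted p = 0.0054). Of 18 genes of the basement membrane, 1 was higher, and 3 were higher without the MWCNT D tumor.

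Genes of proteolysis were higher in part. Of 28 metalloproteinases and inhibitors, 13 were higher and 1 lower (median 1.54), and 16 and 1 without the MWCNT D tumor. The inhibitor Timp1 was at 11.97, 13.18, 11.75, 8.49 and 11.75 in tumors, against 6.49, 7.68 and 6.80 in controls (log2 fold change 4.44 ± 0.78 SE, adjusted p = 0.00052). The membrane collagenase Mmp14 rose by 2.09 and Mmp19 by 3.86 (3.22 at the floor), while Mmp15 changed by -3.30. Gelatinase B (Mmp9) ranged over 4.40, 5.97, 12.30, 6.89 and 9.91 in the tumors, with controls near 0, and at the floor its difference did not pass (adjusted p = 0.19). Of 10 genes of plasminogen activation, 4 were higher (6 without the MWCNT D tumor). The urokinase receptor Plaur was at 10.42, 10.50, 9.84, 6.18 and 9.26 in tumors, against 3.58, 4.71 and 5.08 in controls (log2 fold change 4.78 ± 0.95 SE, at the floor 4.21). Tissue plasminogen activator (Plat) changed by 3.18 and its cell surface receptor subunit Anxa2 by 2.85, and urokinase itself (Plau) did not pass (1.12, adjusted p = 0.17).

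Genes of the actin cytoskeleton rose on average in every tumor, least in that of MWCNT D. Their list mean was 10.37 there and 11.02 to 11.21 in the other tumors, against 8.96 to 9.18 in controls. Of 44 measured genes, 32 were higher and 1 was lower (median 2.01). The counts were 32 and 2 without the MWCNT D tumor, and 27 and 5 with arrays centred. Besides ezrin, alpha-actinin 1 (Actn1), which bundles actin in stress fibers, was at 11.51 to 12.41 in tumors and 7.73 to 8.24 in controls (log2 fold change 3.93 ± 0.41 SE, adjusted p = 1.1e-05). Filamin A (Flna) changed by 2.56, cytoplasmic actin gamma (Actg1) by 1.51 and tropomyosin 3 (Tpm3) by 3.13, although another probe set of Tpm3 was at 5.26 to 5.82 in tumors and 11.06 to 11.99 in controls (-6.11). The muscle filamin Flnc was the gene that was lower (-2.96). Of 19 integrin genes, 13 were higher and 2 lower (median 2.42, and the same counts without the MWCNT D tumor). The laminin receptor subunit Itga3 was at 10.97, 10.51, 10.58, 7.28 and 10.12 in tumors, against 4.79, 4.48 and 5.35 in controls (log2 fold change 5.02 ± 0.69 SE, at the floor 4.77). The 2 lower were Itgb6 (-5.69, and -5.19 at the floor) and the muscle laminin receptor Itga7 (-2.29). Averaged over its probe sets, Itga7 changed by -0.73 and did not pass (adjusted p = 0.21).

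Cell division held the largest share of genes called higher among the lists. Of 45 measured genes of mitosis, 44 were higher, with a median of 4.37 against 0.39 over all genes, and 44 were higher both without the MWCNT D tumor and with arrays centred on their median. Cdk1, the kinase that starts mitosis, was at 11.16, 11.05, 11.78, 8.68 and 10.71 in tumors, against 5.67, 5.97 and 5.25 in controls (log2 fold change 5.04 ± 0.53 SE, adjusted p = 1.2e-05). Aurora kinase B (Aurkb), of the chromosomal passenger complex, changed by 5.16 (5.01 at the floor), topoisomerase II alpha (Top2a), which untangles sister chromatids, by 4.74, and Mki67 by 5.30. Across the list the second MWCNT C tumor was the highest, with a mean of 10.36, and the MWCNT D tumor the lowest, at 7.56, against 4.87 to 5.08 in controls. Of 37 genes of DNA replication, 33 were higher (median 2.61), and 34 without the MWCNT D tumor. The replicative helicase subunits Mcm6 and Mcm3 changed by 4.99 and 5.30 (4.62 at the floor for Mcm3), and the polymerase clamp Pcna by 2.06 at a high signal (11.79 to 12.73 in tumors, 10.12 to 10.20 in controls). In DNA replication the MWCNT D tumor was not apart for Mcm3, where it was the highest (10.28, against 9.21 to 9.99 in the other 4).

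Promoters of these genes are shown because the genes moved together and their promoters share short sequences. A CCAAT box is a sequence bound by the factor NF-Y, the cell cycle homology element (TTTGAA) is bound by the DREAM complex, and the E2F site searched was TTCCCGC, which also takes in the longer TTTCCCGC. Every motif was searched on both strands. Of the 44 mitosis genes called higher, 38 have a promoter in the RefSeq table (GRCr8, 250 bases before to 50 after the start), and of these 73.7% held CCAAT and 68.4% held TTTGAA. The shares were 37.7% and 18.1% over all 27457 promoters of the table, and 37.3% and 12.3% over those of the 11733 measured genes that have one. Of 30 promoters of the replication genes called higher, 19 held CCAAT, 3 held TTTGAA and 12 held TTCCCGC (40.0%, against 4.47% over all promoters and 7.53% over those of measured genes). Of 32 promoters of skeletal muscle genes called lower, 16 held CCAAT, 3 held TTTGAA and 1 held TTCCCGC, and of 24 promoters of matrix genes called higher these counts were 6, 1 and 2. The AP-1 sequence TGACTCA or its complement TGAGTCA was in 2 of the 24 matrix promoters (8.33%), in 2 of the 32 skeletal muscle promoters (6.25%) and in 0.0% of the mitosis and replication sets, against 4.53% of all promoters and 3.8% of those of measured genes. The 4 promoters below, of 2 mitosis and 2 replication genes, run 5′ to 3′ on the gene's strand, with these motifs in capitals, and coordinates are those of GRCr8. Those of Cdk1 and Plk1 pair a CCAAT box, which reads ATTGG when it lies on the other strand, with the element TTTGAA. Those of Mcm3 and Mcm5 hold CCAAT boxes and an E2F site. A match is a description of the letters and not evidence of binding.
Cdk1, chr20:19265043-19265342, plus strand: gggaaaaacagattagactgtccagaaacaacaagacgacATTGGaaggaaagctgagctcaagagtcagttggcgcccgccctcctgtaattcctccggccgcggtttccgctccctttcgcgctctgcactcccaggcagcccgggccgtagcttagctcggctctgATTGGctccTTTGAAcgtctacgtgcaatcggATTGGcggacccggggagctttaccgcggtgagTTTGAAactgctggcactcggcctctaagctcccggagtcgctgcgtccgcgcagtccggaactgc
Plk1, chr1:186147408-186147707, plus strand: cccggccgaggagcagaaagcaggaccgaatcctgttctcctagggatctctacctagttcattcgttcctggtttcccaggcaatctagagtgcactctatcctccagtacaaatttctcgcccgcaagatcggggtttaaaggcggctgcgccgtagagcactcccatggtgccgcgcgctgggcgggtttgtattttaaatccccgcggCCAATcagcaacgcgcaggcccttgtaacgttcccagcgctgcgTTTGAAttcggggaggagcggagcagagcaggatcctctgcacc
Mcm3, chr9:30733697-30733996, minus strand: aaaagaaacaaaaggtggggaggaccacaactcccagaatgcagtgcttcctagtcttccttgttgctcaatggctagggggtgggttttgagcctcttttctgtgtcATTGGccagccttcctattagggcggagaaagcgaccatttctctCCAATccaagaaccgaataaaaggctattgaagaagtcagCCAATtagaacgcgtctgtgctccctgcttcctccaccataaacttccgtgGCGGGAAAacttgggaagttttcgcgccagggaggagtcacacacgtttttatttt
Mcm5, chr19:13488563-13488862, plus strand: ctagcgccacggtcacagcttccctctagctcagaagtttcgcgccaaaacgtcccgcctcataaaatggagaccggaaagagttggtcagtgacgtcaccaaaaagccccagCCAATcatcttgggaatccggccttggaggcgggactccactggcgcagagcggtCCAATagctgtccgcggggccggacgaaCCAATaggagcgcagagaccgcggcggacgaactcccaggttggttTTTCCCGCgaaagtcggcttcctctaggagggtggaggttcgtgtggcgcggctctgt

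Regulators of the cell cycle rose with these genes. Of 26 measured, 17 were higher and 1 lower (median 2.16), and the counts were 17 and 1 without the MWCNT D tumor. Cyclin D1 (Ccnd1), which starts the cycle with Cdk4, was at 12.88, 12.47, 13.16, 10.70 and 11.80 in the tumors of MWCNT B, MWCNT C (first, second), MWCNT D and amosite, against 7.78, 8.11 and 7.89 in controls (log2 fold change 4.27 ± 0.44 SE, adjusted p = 9.6e-06). Myc, a transcription factor of growth, was even across the tumors at 10.09 to 11.17, against 6.87 to 7.35 in controls (3.43 ± 0.30 SE), and E2f1 and Ccna2 changed by 4.38 (3.74 at the floor) and 5.05. The inhibitor Cdkn1c was the gene that fell (-2.48). Of 22 chromatin genes, 6 were higher, a share near that over all genes, and 1 was lower (median 0.56), and without the MWCNT D tumor 6 were higher and 2 lower. The maintenance methyltransferase Dnmt1 and the polycomb methyltransferase Ezh2 changed by 3.36 and 2.84, and the demethylating enzyme Tet1 by -2.41.

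Genes lost or mutated in human mesothelioma showed no more calls than genes at large. Of 18 measured, 4 were higher, against 26.6% over all genes, and 1 lower (median 0.27), with 4 and 2 without the MWCNT D tumor. The deubiquitinase gene Bap1 was lower in every tumor than in every control, at 10.02, 9.89, 9.99, 10.11 and 10.24, against 10.90, 10.95 and 10.84, but its fold change was under 2 (log2 fold change -0.85 ± 0.13 SE, adjusted p = 0.00022). The merlin gene Nf2, at 9.07 to 9.73 in tumors and 9.74 to 9.85 in controls, did not pass (adjusted p = 0.16). Cdkn2a, which encodes inhibitors of the cell cycle, was called higher at low signal, with 3.36, 6.58, 6.79, 7.15 and 5.40 in tumors against 2.95, 3.98 and 4.09 in controls. The MWCNT B tumor lay within the controls, and at the floor the difference did not pass (adjusted p = 0.06). Its neighbor Mtap was at 7.03 to 10.03 in tumors and 8.74 to 9.08 in controls (adjusted p = 0.65), again lowest in the MWCNT B tumor. In the Hippo pathway, where merlin acts and whose target genes are read by Tead factors, 11 of 28 genes were higher and 3 lower (median 0.83), but 5 were higher and 3 lower with arrays centred, and 10 and 2 without the MWCNT D tumor. The kinase Nuak2 was the most even, at 7.63 to 7.72 in tumors and 4.03 to 4.46 in controls (log2 fold change 3.36 ± 0.22 SE, at the floor 2.67), and Ccn1 changed by 1.94, a call that was lost without the first or the second control (adjusted p = 0.085 and 0.073). The connective tissue growth factor Ccn2 ranged over 10.19 to 13.60 in tumors, against 10.57 to 11.12 in controls, and did not pass (adjusted p = 0.28). Tead1 and Amotl1 fell by 1.25 and 2.87 on the log2 scale, the call of Tead1 being lost without any 1 control or without the MWCNT D tumor. Tead4 fell by 2.11 in its brightest probe set, while another of its probe sets was higher (6.17 to 6.70 in tumors and 4.29 to 5.0 in controls, log2 fold change 1.73).

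Growth factor signaling showed single large rises rather than a general one. Of 45 genes of receptor tyrosine kinases and their ligands, 15 were higher and 3 lower (median 0.85). Without the MWCNT D tumor 17 were higher and 3 lower, and with arrays centred 9 were higher and 6 lower. Transforming growth factor alpha (Tgfa), a ligand of the EGF receptor, was at 9.47, 10.48, 7.94, 8.45 and 10.76 in tumors, against 0.01, 2.35 and 3.79 in controls (log2 fold change at the floor 4.42, adjusted p = 0.0018). The ephrin receptor Epha2 was at 10.01, 9.59, 10.39, 6.45 and 8.23, against 5.14, 5.36 and 5.83 in controls (3.49 ± 0.77 SE), and Mertk, a receptor of phagocytes for the ligand Gas6, changed by 3.23. Fgfr4 changed by -3.50 (-3.11 at the floor). Ret, a receptor of neurons, was at 6.18 to 6.84 in 4 tumors but at 13.29 in the MWCNT D tumor, against 11.88 to 12.35 in controls, so its fall (-4.34, adjusted p = 0.023, and -5.72, adjusted p = 2.8e-05, without that tumor) was not shared by all 5. The call of Ret was lost without any 1 control (adjusted p = 0.054 to 0.067).

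Of 31 genes of TGF-beta and activin signaling, 11 were higher and 1 lower (median 0.92), and 13 and 1 without the MWCNT D tumor. Tgfb1 itself was at 7.03 to 8.22 in tumors and 3.84 to 5.10 in controls (log2 fold change 3.12 ± 0.40 SE, adjusted p = 5e-05, at the floor 2.58). The activin subunit Inhba was at 10.81, 10.98, 9.97, 6.21 and 10.20 in tumors, against 6.23, 6.36 and 5.84 in controls, the MWCNT D tumor lying within the controls, and its call was lost without any 1 control (adjusted p = 0.05 to 0.067). Inhbb changed by 3.80, and the latent TGF-beta binding protein Ltbp2 by 6.27 (4.54 at the floor). Myostatin (Mstn), the growth inhibitor made by muscle, was the gene that fell (-8.96, and -5.49 at the floor). In WNT signaling, 7 of 29 were higher and 2 lower (median 0.57), shares near those over all genes, and 9 and 2 without the MWCNT D tumor. The receptor Fzd1 changed by 2.85, Fzd4 by -3.37 and the ligand Wnt5b by 3.11 at the floor.

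Factors of the AP-1 family and immediate early genes were higher in 15 of 31 cases and lower in 1 (median 0.88), and in 16 and 1 without the MWCNT D tumor. Fosl1, an AP-1 subunit that is induced through ERK, was at 9.64, 11.37, 10.98, 5.03 and 11.19 in the tumors, against 3.80, 4.47 and 4.18 in controls. All but the MWCNT D tumor were far above the controls (log2 fold change at the floor 4.64, adjusted p = 0.011). The ERK phosphatases Dusp6 and Dusp5, which are induced by the kinase they oppose, changed by 3.55 and 3.25, and Egr2 and Junb by 3.44 and 2.73. Nr4a1, a nuclear receptor that responds to activity in muscle, fell by 3.82 on the log2 scale.

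Among the lists of immune cells, that of macrophages held the largest share of genes called higher. Of 18 macrophage genes, 17 were higher (median 3.13, and 17 without the MWCNT D tumor). The lysosomal protein Cd68 was at 11.01, 11.85, 11.67, 11.63 and 11.90 in tumors, against 6.01, 7.89 and 7.07 in controls (log2 fold change 4.62 ± 0.53 SE, adjusted p = 2.2e-05). The adaptor Tyrobp was at 11.04 to 11.97 in tumors and 7.36 to 8.63 in controls (3.77 ± 0.47 SE), and lysozyme (Lyz2) at 13.01 to 13.61 and 9.74 to 11.38 (2.82 ± 0.34 SE). The scavenger receptor Cd163 did not pass (8.87 to 11.40 in tumors, 7.02 to 7.94 in controls, adjusted p = 0.11). Macrophage genes held 0.21% to 0.41% of the tumors' signal and 0.02% to 0.046% of the controls'. The MWCNT D tumor lay within the range of the others for this list (10.53, against 10.06 to 11.25 in the others).

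Lymphocyte genes were brightest in the MWCNT D tumor. Of 19 genes of T and NK cells, 9 were higher with all tumors (median 2.32) and 12 without that tumor, where the median was 1.55. The T cell receptor chain Cd3e was at 6.88, 7.18, 6.40, 11.91 and 6.58 in tumors, against 5.43, 5.44 and 5.53 in controls, and passed only without the MWCNT D tumor (adjusted p = 0.072, and 0.0051 without it). The kinase Lck was at 7.59, 8.43, 7.67, 12.31 and 7.78, against 5.74, 5.56 and 6.02 in controls (log2 fold change 2.98 ± 0.88 SE, adjusted p = 0.013). For both genes all tumors were above all controls, and the tumor of MWCNT D stood far above the rest. Granzyme B (Gzmb), which killer cells release, was highest in the first MWCNT C tumor (12.09, against 5.46 to 8.67 in the other tumors). Of 10 genes of B and plasma cells, 3 were higher, a share near the 26.6% over all genes (median 2.01), and without the MWCNT D tumor 4 were higher and 1 lower (median 0.69). Those higher included the antibody joining chain Jchain at 8.27, 6.71, 8.34, 13.51 and 10.09 in tumors, against 4.94, 4.77 and 5.18 in controls. Syndecan 1, which is on the plasma cell list, is also a protein of epithelia. Of 10 neutrophil genes, 7 were higher (median 2.06, and 7 without the MWCNT D tumor), among them the NADPH oxidase subunit Cybb, which macrophages share (2.97), and S100a9, at 12.58 in the first MWCNT C tumor and 6.63 to 9.73 in the other 4. Of 11 mast cell genes, 5 were higher (median 1.74, and 5 without the MWCNT D tumor), with the tryptase Tpsab1 at 10.55, 11.70, 10.08, 6.28 and 9.42 in tumors, against 3.21, 6.0 and 6.19 in controls.

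Genes of signaling between these cells rose as well. Of 30 chemokines and chemokine receptors, 17 were higher and 1 lower (median 2.48), and 15 and 2 without the MWCNT D tumor. Cxcl13, which draws B cells, was at 12.16, 11.28, 9.96, 13.26 and 12.31 in tumors, against 4.86, 4.94 and 5.54 in controls (log2 fold change 6.68 ± 1.04 SE, adjusted p = 0.00021). The monocyte chemokine Ccl2 changed by 3.50 and Cxcl16 by 3.72. Of 26 genes of the interleukin 6 and interleukin 1 families, 14 were higher and 1 lower (median 1.88), and 16 and 1 without the MWCNT D tumor. Il18 was at 9.63, 10.65, 9.25, 11.01 and 9.90, against 4.07, 5.51 and 4.89 in controls (5.27 ± 0.44 SE, at the floor 4.92), and the nuclear alarmin Il33 changed by 3.88. Interleukin 6 itself (Il6) reached 9.33 in the first MWCNT C tumor and 3.01 to 7.08 in the others, with controls near 0, and did not pass at the floor (adjusted p = 0.41).

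Of 26 genes of the interferon response, 20 were higher (median 3.07), and 17 were higher without the MWCNT D tumor. The immunoproteasome subunit Psmb8 was the most even, at 11.38, 11.53, 11.69, 12.36 and 11.19 in tumors, against 7.06, 7.50 and 7.30 in controls (log2 fold change 4.34 ± 0.33 SE, adjusted p = 7.2e-07). The peptide transporter Tap1 changed by 5.47 (4.36 at the floor). Mx1, an antiviral protein of the type I response, varied more, with 11.93, 8.63, 7.66, 13.62 and 11.57 in tumors and 7.17 to 7.38 in controls, and was lowest in the tumors of MWCNT C (adjusted p = 0.041, and 0.074 to 0.098 without any 1 control or without the tumor of MWCNT B, MWCNT D or amosite). Of 12 immune checkpoint genes, 10 were higher (median 2.12, and 10 without the MWCNT D tumor). Cd47, which inhibits phagocytosis, was at 11.34 to 12.21 in tumors and 9.45 to 9.80 in controls (2.25 ± 0.26 SE), its receptor Sirpa changed by 2.32 and the T cell inhibitor Vsir by 2.90. Ctla4 was at 5.78 to 6.44 in tumors and 5.85 to 5.96 in controls (adjusted p = 0.37).

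Genes of secretion rose moderately. Of 24 genes of chaperones and stress in the endoplasmic reticulum, 13 were higher (median 1.16), and 14 without the MWCNT D tumor. The disulfide isomerase Pdia3 was at 12.67 to 13.04 in tumors and 10.24 to 10.66 in controls (log2 fold change 2.53 ± 0.15 SE, adjusted p = 6.9e-08), and the chaperone Hsp90b1 changed by 2.15. Among 23 genes of iron handling and the NRF2 response, 7 were higher, a share near the 26.6% over all genes, and 1 lower (median 0.62, and 0.24 with arrays centred), and without the MWCNT D tumor 8 were higher and 0 lower. Heme oxygenase 1 (Hmox1) was at 10.45, 13.27, 10.16, 11.75 and 11.86, against 7.28, 7.94 and 7.35 in controls (3.97 ± 0.61 SE), and the transferrin receptor Tfrc fell by 1.98 on the log2 scale, a call that was lost without any 1 control and without the tumor of MWCNT B, the first of MWCNT C or that of MWCNT D (adjusted p = 0.052 to 0.092). Of 18 genes of prostanoid and leukotriene synthesis, 11 were higher and 1 lower (median 1.97), and 12 and 1 without the MWCNT D tumor. Prostacyclin synthase (Ptgis) was at 11.25, 10.07, 9.70, 7.02 and 11.64 in tumors, against 6.49, 6.74 and 6.62 in controls (3.32 ± 0.80 SE). Cyclooxygenase 1 (Ptgs1) changed by 3.01, while cyclooxygenase 2 (Ptgs2) was at 11.49 in the first MWCNT C tumor and at 4.43 to 6.32 in the other 4, against 3.79 to 4.68 in controls (adjusted p = 0.16).

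Genes of smooth muscle, adipocytes and endothelium changed less than those of skeletal muscle. Of 13 genes of smooth muscle and myofibroblasts, 3 were higher and 3 lower (median -0.16), and without the MWCNT D tumor 3 were higher and 4 lower (median -0.59). Smooth muscle actin (Acta2), which myofibroblasts also make, was even at 10.19 to 10.48 in tumors and 7.05 to 7.49 in controls (log2 fold change 3.03 ± 0.30 SE), while the smooth muscle myosin Myh11 was at 6.07 to 9.11 and 7.76 to 8.29 (adjusted p = 0.24). Of 19 adipocyte genes, 4 were lower (median -0.70, and 3 without the MWCNT D tumor), with adiponectin (Adipoq) at 11.39, 3.04, 9.99, 10.98 and 9.36 in tumors, lowest in the first of MWCNT C, against 9.89, 11.07 and 11.14 in controls. Of 15 endothelial genes, 1 was higher, the VEGF receptor Flt1 (1.68, adjusted p = 0.04, and 0.077 to 0.11 without any 1 control or without the tumor of MWCNT B, the first of MWCNT C or that of amosite). Without the MWCNT D tumor, 1 endothelial gene was higher and 1 lower.

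A list of 38 genes tied to mesothelioma was taken from the study's text, and 33 of them were measured here. The study chose them because they changed on these arrays, so their direction is not independent evidence. Of the 33, 25 were higher and 4 lower (median 1.72), with the same counts without the MWCNT D tumor. Besides Wt1, Msln, Spp1 and Vim, the kinase genes Src and Lyn changed by 2.62 and 3.90, N-cadherin (Cdh2) by 3.76 (3.20 at the floor) and the division factor Foxm1 by 2.57 at the floor. The 4 lower were the tubulin genes Tuba8 (-7.21) and Tuba4a (-3.62), Ulk2 (-1.66) and Mmut (-1.62). Of 6 genes with RT-qPCR assays, Plaat1 (-4.28), Nr4a1, Fgfr4 and Ret were lower on the arrays and Rnd3 was higher (2.40), with the same counts of 4 and 1 without the MWCNT D tumor. The sixth, Gadd45b, was at 6.93 to 10.73 in tumors and 8.12 to 8.30 in controls (adjusted p = 0.65).

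Set against the other tumor types, the sarcomatoid tumors differed at few genes, and most of these were lower. Against biphasic tumors, 4 of 31042 probe sets were higher (0.0129%) and 73 lower (0.235%), or 2 genes (0.0141%) and 47 genes (0.331%). Against epithelioid tumors, 22 probe sets were higher (0.0709%) and 214 lower (0.689%), or 10 genes (0.0703%) and 112 genes (0.788%). These counts rested on single arrays and on the fit. Without the MWCNT D sarcomatoid tumor, 30 probe sets were higher and 141 lower than in biphasic tumors, and 67 and 354 than in epithelioid tumors. With arrays centred, 36 were higher and 130 lower than in epithelioid tumors. With the fiber as a covariate among the tumors, limma called 1 higher and 0 lower against biphasic tumors (274 and 889 at an unadjusted p below 0.05 and a fold above 2), and 0 higher and 5 lower against epithelioid tumors (411 and 1446). Of the genes named below, Krt7 and Agrn passed in both comparisons whichever single array was left out, and each other gene given below as called with its log2 fold change lost a call without at least 1 of the single arrays. With the fiber as a covariate, none of the 7 named genes called against biphasic tumors and none of the 17 called against epithelioid tumors kept its call. The adjusted p of Krt7 and Agrn was then 0.14 and 0.16 against biphasic tumors and 0.065 and 0.073 against epithelioid tumors. In fits of only the groups compared 0 of the 7 and 5 of the 17 did.

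Keratins and mesothelial genes were among those lower than in the other tumor types. The mesothelial list averaged 6.78 to 9.02 in the sarcomatoid tumors, against 10.28 to 10.48 in biphasic and 10.33 to 10.77 in epithelioid tumors. In it, 3 genes were lower than in biphasic tumors (median of the list -2.25) and 6 lower than in epithelioid tumors (median -2.26). Krt7, a keratin of simple epithelia, was at 5.07, 8.10, 6.04, 4.71 and 5.87 in sarcomatoid tumors (MWCNT B, MWCNT C first and second, MWCNT D, amosite), against 12.18, 12.51 and 10.39 in biphasic tumors and 11.27, 11.26 and 11.15 in epithelioid tumors. The sarcomatoid tumors lay below all others, the first of MWCNT C the least (log2 fold change -5.74 ± 0.66 SE, adjusted p = 0.01, against biphasic tumors, and -5.27 ± 0.66 SE, adjusted p = 0.0062, against epithelioid tumors). Krt14 showed the same order, with differences of -5.59 (adjusted p = 0.012) and -4.40 (adjusted p = 0.02). Krt19 was at 5.20 to 8.26 in sarcomatoid tumors, 10.34 to 13.33 in biphasic and 11.45 to 12.89 in epithelioid tumors, and passed only against the epithelioid type (-5.57, adjusted p = 0.04, and -5.83, adjusted p = 0.059, against the biphasic type).

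The transcription factor basonuclin 1 (Bnc1), found in mesothelium and squamous epithelia, was at 4.62, 7.25, 4.28, 4.43 and 5.40 in sarcomatoid tumors, against 10.81, 10.11 and 9.07 in biphasic tumors and 9.90, 11.17 and 11.48 in epithelioid tumors (log2 fold change -4.80, adjusted p = 0.028, and -5.66, adjusted p = 0.0083). Lrrn4, which had not differed between sarcomatoid tumors and controls beyond the spread, was lower than in both tumor types (-3.24, adjusted p = 0.029, and -4.03, adjusted p = 0.0067). Agrin (Agrn), a heparan sulfate proteoglycan of basement membranes, was the difference with the smallest adjusted p among the genes named for this comparison, at 8.23 to 8.85 in sarcomatoid tumors, 10.44 to 11.08 in biphasic and 10.41 to 10.94 in epithelioid tumors (-2.21 ± 0.21 SE, adjusted p = 0.002, and -2.22 ± 0.21 SE, adjusted p = 0.0013). Other genes lower than in both types were Prr15l, Fxyd3, Tspan8 and the Hippo effector Tead2 (-2.10 and -2.62). Lower than in epithelioid tumors alone by this test were the prostaglandin D synthase Ptgds (-7.17), the vesicle protein Mal2 (-7.12, and -6.49 at the floor), Epcam (-5.13) and plakophilin 2 (Pkp2, -2.53). Without the MWCNT D tumor, Ptgds was also lower than in biphasic tumors (-7.0, adjusted p = 0.019). Higher than in epithelioid tumors were the B cell coactivator Pou2af1 (5.88, and 4.55 at the floor), Stambpl1 (2.21), Ralgps2 (2.08), Slc16a7 (1.68), Dok1 (1.65) and Sh3kbp1 (1.54). At the floor Pou2af1, Stambpl1, Ralgps2 and Sh3kbp1 no longer passed (adjusted p = 0.12, 0.072, 0.052 and 0.052). Higher than in biphasic tumors was the ubiquitin ligase Cblb (1.24).

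**Figure D4:**
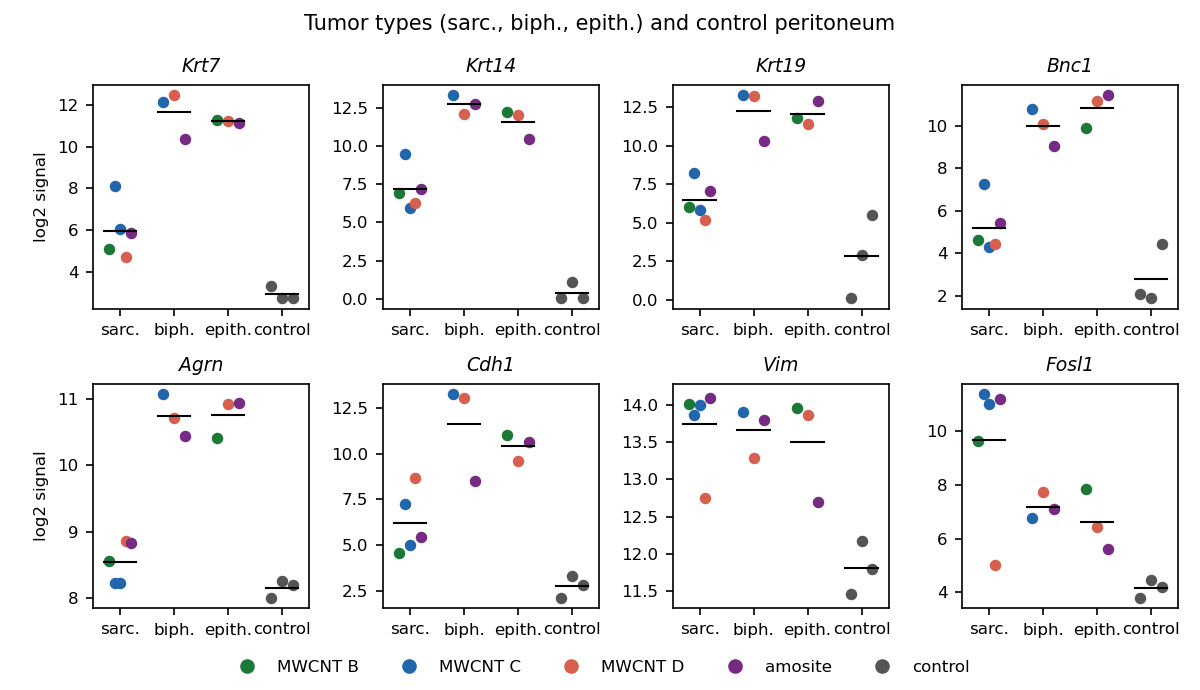
Log2 signal (y axis) of 8 genes in each sarcomatoid, biphasic and epithelioid tumor and each control (left to right, abbreviated sarc., biph. and epith. for the tumors, points coloured by fiber, bars at group means, an axis of its own for each gene). For Krt7, Krt14, Bnc1 and Agrn the sarcomatoid tumors lie below all biphasic and epithelioid tumors, with Agrn at 8.23 to 8.85 against at least 10.41, while for Vim the tumor types lie within each other.

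Of the classic pair of the epithelial to mesenchymal switch, neither gene passed against another tumor type with all 5 sarcomatoid tumors. E-cadherin (Cdh1) was at 4.59 to 8.69 in sarcomatoid tumors, against 8.51 to 13.27 in biphasic and 9.62 to 11.05 in epithelioid tumors, and passed only without the MWCNT D tumor, its highest (-6.05, adjusted p = 0.03, and -4.86, adjusted p = 0.045, without it, against adjusted p = 0.08 and 0.11 with it). Vimentin was at 12.75 to 14.09 in sarcomatoid, 13.29 to 13.90 in biphasic and 12.70 to 13.95 in epithelioid tumors, and did not pass (adjusted p = 0.98 and 0.83). Fosl1 was higher than in both types without the MWCNT D tumor (3.61, adjusted p = 0.017, and 4.16, adjusted p = 0.0065) and did not pass with it (adjusted p = 0.56 and 0.30). The mitosis list had medians of 0.10 against biphasic and 0.49 against epithelioid tumors. Without the MWCNT D tumor the medians were 0.51 and 0.90, with 2 genes called higher against epithelioid tumors.

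Among themselves, the 5 sarcomatoid tumors differed most in genes that were far brighter in some tumors than in others. Of 7461 genes with a mean log2 signal of at least 8 in them, 4000 had a range under 1 and 201 a range over 4, with a median range of 0.94. Hmga2, an architectural chromatin protein that is active in embryos and many tumors, was at 16.28 in the MWCNT B tumor and 17.37 and 16.33 in the MWCNT C tumors, but at 8.05 and 8.04 in the MWCNT D and amosite tumors, against 8.41 to 8.53 in controls. It did not pass against controls with all tumors (adjusted p = 0.063), and passed without the MWCNT D or without the amosite tumor (adjusted p = 0.011 and 0.013). Moxd1, a relative of dopamine hydroxylase, was at 15.07 in the first MWCNT C tumor and 15.15 in the MWCNT D tumor, and at 6.48 to 6.54 in the other 3. The WNT receptor ligand Ndp was at 15.93 in the MWCNT B tumor and 6.83 to 8.11 in the others, and Wnt10a, on the WNT list and chosen after its values were seen, at 12.56 in the same tumor and 7.0 to 7.36 in the others. The regulator of G protein signaling Rgs17 was at 14.90 in the first MWCNT C tumor and 6.47 to 6.80 in the others. The remaining genes of the 8 widest ranges were Ctrb1, Cela2a, Ccl19 and Glycam1, all high in the MWCNT D tumor alone. The 2 tumors of MWCNT C were thus unlike for Moxd1 and Rgs17 and alike for Hmga2.

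**Figure D5:**
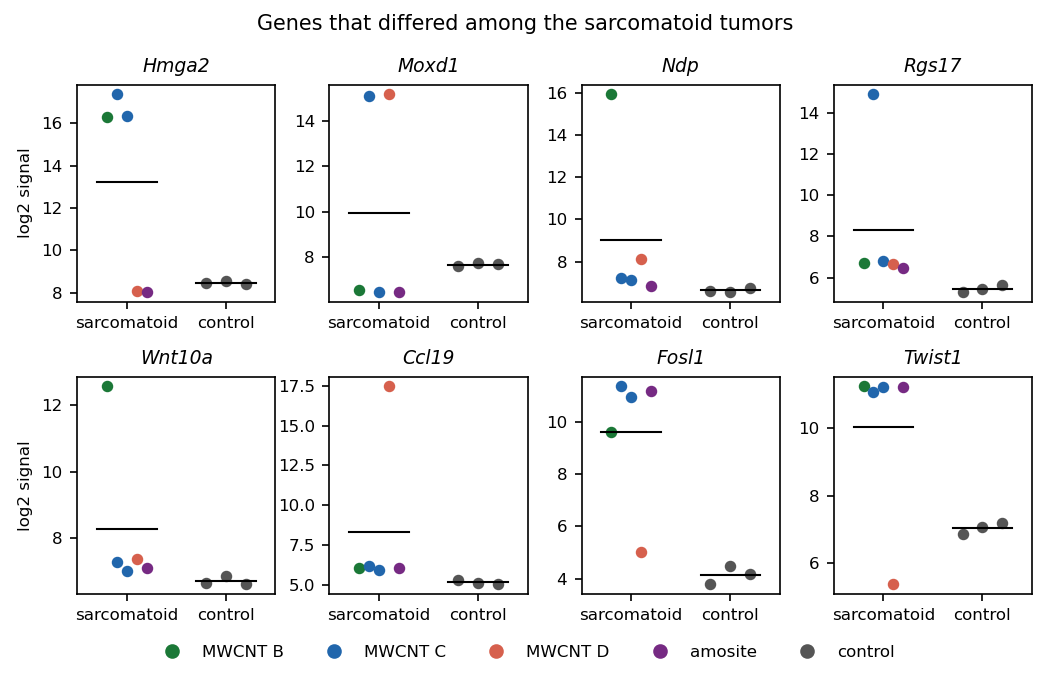
Log2 signal (y axis) of 8 genes in the 5 sarcomatoid tumors (left of each pair, coloured by fiber) and the 3 controls (right), with bars at group means and an axis of its own for each gene. Hmga2 is at 16.28 to 17.37 in the tumors of MWCNT B and MWCNT C and near the controls in the other tumors, and each of the other genes is high in 1 or 2 tumors, or, for Fosl1 and Twist1, low in the MWCNT D tumor at 5.03 and 5.39.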

How the data were processed

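Total RNA from 11 tumors and 3 control tissues was labelled by in vitro transcription and hybridised to Affymetrix GeneChip Rat Genome arrays, 1 array a sample. The deposited intensity of each probe set was computed by the authors with PLIER in the Transcriptome Analysis Console, on a linear scale and without detection calls. The number of arrays limits the precision. After removal of 57 AFFX control probe sets, 31042 probe sets were tested as log2(intensity + 1) in limma 3.58.1 (R 4.3.3), with 1 fit of all 14 arrays in 4 groups and Benjamini-Hochberg adjustment over each contrast. A probe set was called where its fold change exceeded 2 at an adjusted p under 0.05. Group sizes came from the tissue labels, and the p-values measure the spread between samples that the labels call biological replicates.

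Of the probe sets, 20826 carried 1 gene symbol in the platform annotation, 436 several and 9780 none, and symbols were updated through RefSeq gene IDs for 20758. The brightest probe set over all arrays stood for each of 14217 genes. Genes were named when called, without overlap of the groups and with a mean of at least 8 in the higher group, taking the 12 largest changes in each direction against controls, the 6 largest against each other tumor type, the 8 widest ranges, and 2 to 5 genes of each of 44 lists together with their defining members. The members and lists were chosen with earlier results of these data known. Alternatives were other normalizations, a floor at 5, a filter at 6, a pseudocount of 16, other models, and the omission of single arrays. The fit was tested on simulated data with known changes.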

Additional observations from a re-analysis of the deposited data

Results flagged for a closer look

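Among the 5 sarcomatoid tumors, the highest or the lowest was compared with its nearest neighbor, and a gap above 0.71 of the whole range put it in this section. Chance alone does this in about 1 of 20 groups. The lists and genes share the same 5 arrays and were chosen with earlier results known. Their counts can therefore not be set against that rate. It did so for 8 of 44 lists and 14 of 45 genes, and the tumor set apart was that of MWCNT D for 7 of the lists and 13 of the genes. That tumor was high in the list means of pancreatic acinar cells (13.83), B and plasma cells (11.88), T and NK cells (10.24) and the genes measured by RT-qPCR (8.56). It was low in those of plasminogen activation (7.61), the actin cytoskeleton (10.37) and the mesothelioma genes that the study names (9.03).

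Among single genes, the MWCNT D tumor was high in Lck (12.31) and Cd3e (11.91). It was low in the mesothelial genes Wt1 (7.08) and Msln (7.92), in the epithelial genes Krt8 (7.93) and Pkp1 (5.27), and in the filament gene Des (9.42). The factors Twist1 (5.39) and Fosl1 (5.03) were low there too, as were Inhba (6.21), Itga3 (7.28), Plaur (6.18) and Gpr15lg (7.09). The first tumor of MWCNT C was low in the adipocyte list (6.30) and in Adipoq (3.04).

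Between tumor types, the change against controls differed by limma's test in 24 of 25 differences examined for this section. The controls cancel in such a difference, which leaves the plain difference between the tumor types. Most of these genes had been named because the same test called them, so the count is not a separate result. Sarcomatoid minus biphasic, the log2 difference was -5.74 for Krt7, -5.59 for Krt14, -4.80 for Bnc1, -3.24 for Lrrn4, -2.21 for Agrn, -2.10 for Tead2 and 1.24 for Cblb. Sarcomatoid minus epithelioid, it was -7.17 for Ptgds, -7.12 for Mal2, -5.66 for Bnc1, -5.57 for Krt19, -5.27 for Krt7, -5.13 for Epcam, -4.40 for Krt14, -4.03 for Lrrn4, -2.62 for Tead2, -2.53 for Pkp2 and -2.22 for Agrn. The positive ones were 5.88 for Pou2af1, 2.21 for Stambpl1, 2.08 for Ralgps2, 1.68 for Slc16a7, 1.65 for Dok1 and 1.54 for Sh3kbp1.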

How the results depend on the processing

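The comparison with controls kept both counts within 1.5 times of the main ones in every alternative but 1, the centring of arrays, which gave 5235 lower. Of 44 lists, 35 had a median above that over all genes, and 34 or 35 under centring, with the floor or without the MWCNT D tumor. Endothelium, basement membrane and tumor suppressors had medians of -0.17, -0.09 and -0.11 under centring, against 0.21, 0.29 and 0.27. Averaged over its probe sets, Tpm2 changed by -3.57, since its probe sets oppose each other. Itga7 (-0.73, adjusted p = 0.21) and Twist1 (3.03, adjusted p = 0.087) lost their calls when averaged in this way. Against controls, single arrays ended the calls of Krt19 and Cdkn2a without the first control (adjusted p = 0.092 and 0.095) and of Cdh1 without the first or the last control (0.078 and 0.054).

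The comparisons with other tumor types depended on single arrays and on the model, and the cause was not tested. Leaving out 1 array gave 2 to 37 probe sets higher and 11 to 155 lower against biphasic tumors, lowest without the biphasic tumor of MWCNT C and highest without that of amosite. Against epithelioid tumors it gave 0 to 67 higher, with 343 higher at an unadjusted p below 0.05 and a fold above 2 where limma called 0, and 22 to 354 lower. These were lowest without the epithelioid tumors of MWCNT D (higher) and amosite (lower), and highest without the sarcomatoid tumor of MWCNT D. Without both arrays with pancreatic enzymes, a setting chosen after seeing the data, the counts were 56 and 200 against biphasic and 11 and 68 against epithelioid tumors. Fits of only the groups compared gave 1 and 2 against biphasic and 0 and 54 against epithelioid tumors (275 higher at an unadjusted p), and the fiber as a covariate gave 1 and 0, and 0 and 5. Against biphasic tumors, 2 were higher with the filter at 6 and 8 after quantile normalization. Against epithelioid tumors, 36 were higher and 130 lower under centring, and 13 were higher with the floor.

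Deviations from group means were correlated between arrays with the same replicate number in their titles. Between sarcomatoid tumors and controls these correlations were -0.048 to 0.027, and those of other pairs reached 0.055. With biphasic tumors they were -0.106 to 0.143, and those of other pairs reached 0.207. These values showed no pairing by number. With epithelioid tumors they were -0.035 to 0.059, which cannot decide the question, since all epithelioid tumors carry the same number and their deviations cancel. With the replicate number as a block, 6992 were higher and 3373 lower than in controls, 1 and 9 against biphasic and 0 and 3 against epithelioid tumors (312 higher at an unadjusted p). No biphasic tumor carries the number of the epithelioid tumors, so this block also takes up part of the difference between tumor types. Without detection calls, signals near the floor have no firm order.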
